A study of Mus musculus with 26 samples.

Results

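Liver transcripts were compared between C57BL/6 mice given benoxacor at 50 mg/kg and mice given it at 5 mg/kg. Members were chosen by the dose in the labels alone: all 8 mice at 50 mg/kg and all 8 at 5 mg/kg, 16 of the 26 mice of the series. Every mouse, the 10 others at 0 or 0.5 mg/kg included, was gavaged orally on 3 consecutive days, and its liver was taken 24 hours after the final gavage. The labels put acclimatisation at 4 to 8 weeks and say that bedding was mixed to even out the microbiome. Mouse numbers form a run up to 616 and a run from 619, and each dose has 4 mice in each run. Within a run the numbers of the 50 mg/kg mice follow those of the 5 mg/kg mice in 1 block, so dose and number order cannot be told apart. Each library is 1 mouse. The labels give no sex, and they do not say what separates the runs.

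Benoxacor is a safener, a compound sold with chloroacetanilide herbicides to protect the crop. The liver clears such compounds in steps: cytochrome P450 enzymes oxidise them, carboxylesterases hydrolyse esters and amides, and glutathione, glucuronic acid or sulfate is then attached. Receptors in hepatocytes, CAR, PXR, AhR and PPAR-alpha among them, sense foreign chemicals and lipids and switch on these enzymes, so their target genes serve as readouts of exposure.

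Total counts ranged from 5913429 to 8662751 at 50 mg/kg (median 6764342) and from 6504670 to 8505009 at 5 mg/kg (median 7740178). Levels are given in CPM, counts scaled to a common library total, with edgeR's TMM factors for library makeup. Hepatocyte markers were abundant in all 16 libraries, with sums between 80100 and 145000 CPM at 50 mg/kg and between 78000 and 166000 CPM at 5 mg/kg. In bulk tissue, fewer cells of a type and less RNA per cell cannot be told apart.

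A pair of 5 mg/kg libraries, replicates 6 and 8, stood apart. In replicate 8, 16 of 20 markers of steroid-producing cells lay above the other 14 libraries of both doses. Among them were Hsd3b1, an enzyme of steroid synthesis, at 1310 CPM against at most 0.145 CPM, and Cyp11b1, the enzyme that makes corticosterone in the adrenal cortex, at 465 CPM against at most 0.265 CPM. Cyp11a1, which starts steroid synthesis, had 473 CPM in replicate 8 and no read in replicate 6 or in the other 14 libraries. Most adipocyte markers were high in both: 14 of 14 lay above the other 14 libraries in replicate 8, and 11 of 14 in replicate 6. Their sum in replicate 6, 2420 CPM, still lay within the 1510 to 3040 CPM of the 5 mg/kg mice outside the pair. Car3, 1 of these markers, made up 1790 CPM of that sum and reached 2990 CPM in the other 14 libraries. Adipoq, the fat cell hormone adiponectin, had 97.8 CPM in replicate 8 and 42.2 CPM in replicate 6, against at most 1.74 CPM in the others. Ucp1, the uncoupling protein of brown fat, had 55.2 and 79.7 CPM in replicates 8 and 6, against at most 0.23 CPM. Of 29 markers of stellate cells and fibroblasts, 23 lay above the other 14 libraries in replicate 8 and 8 in replicate 6. Of 23 lymphocyte and neutrophil markers, 13 and 3 did. The share of all genes that lay above the other 14 libraries was not counted, so the smaller of these counts cannot be weighed. Replicate 8 had a count for 22970 genes, more than any other library. Col1a2, a collagen chain, stood at 59.2 CPM in replicate 8 and at 12.9 CPM in replicate 6, against at most 15.9 CPM elsewhere. Ighm, the antibody heavy chain, stood at 70.0 CPM in replicate 8, where the other 14 libraries reached 4.82 CPM. Replicate 6 was also lowest in Mup transcripts, major urinary proteins made by hepatocytes, at 0.649% of its counts, against 3.25% to 7.94% at 50 mg/kg. These genes were named after their levels were seen, and results are given with all 16 mice and without replicates 6 and 8.

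**Figure D1:**
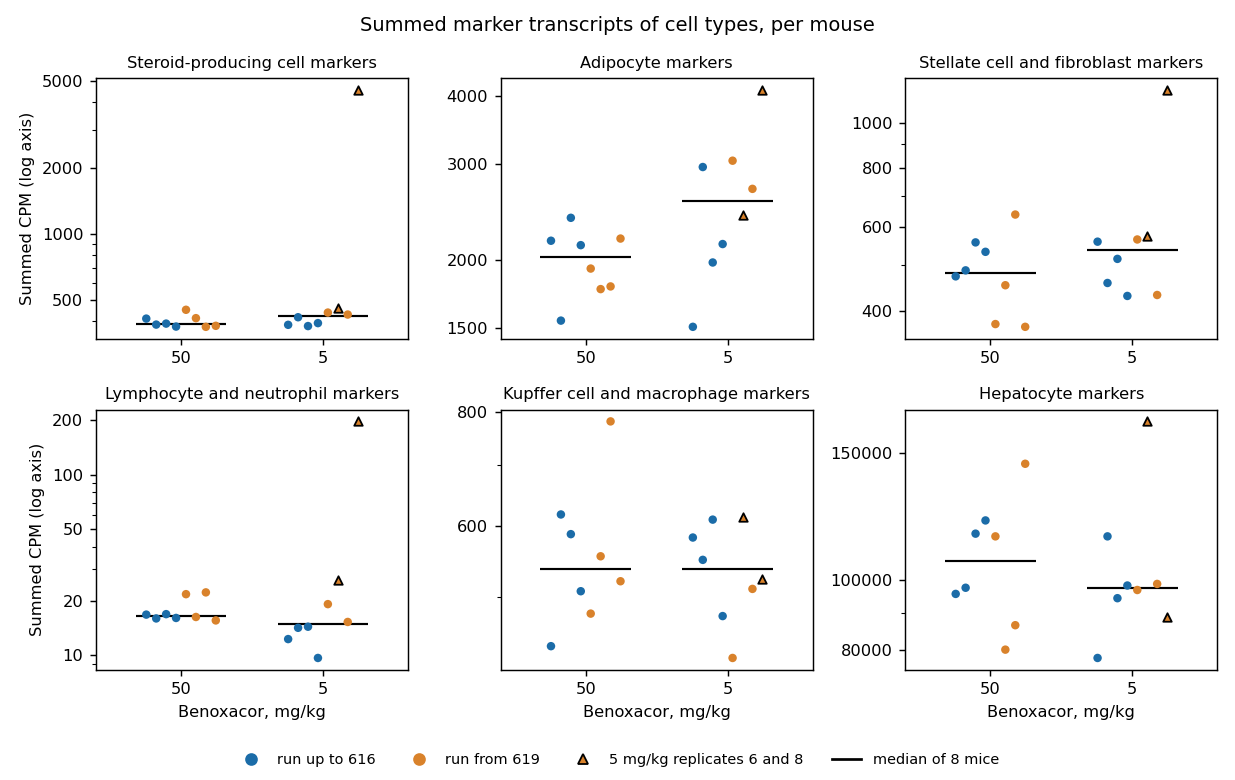
Summed CPM of marker genes of 6 cell types (log axis), 1 point per mouse, 50 mg/kg left of 5 mg/kg; blue and orange are the runs, triangles the 5 mg/kg replicates 6 and 8, and bars the medians. Replicate 8 holds 4540 CPM of steroid-producing cell markers, against 377 to 451 CPM in the 50 mg/kg mice, while macrophage marker sums overlap between the doses.

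No gene separated the doses past the threshold. Of 14415 genes tested with edgeR's quasi-likelihood test, 0 (0%) passed an adjusted p of 0.05, and the smallest value was 0.962. Without adjustment, a p under 0.05 was found for 699 genes (4.85%), 353 with a higher mean at 50 mg/kg (2.45%) and 346 with a lower one (2.40%). The median log2 fold change over all genes was -0.00322, and 49.3% were positive. DESeq2 and limma-voom also called 0 genes, and found 736 and 527 before adjustment. Without 5 mg/kg replicates 6 and 8, edgeR called 0 again (smallest adjusted p = 0.997). Before adjustment 483 genes (3.35%) were under 0.05, 260 of them positive (1.8%) and 223 negative (1.55%).

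Single mice overlapped almost everywhere. Only 1 gene, Ugt1a7c, had all 8 mice at 50 mg/kg above all 8 at 5 mg/kg (0.00694% of genes), and 0 genes had them all below. With replicates 6 and 8 left out, 3 genes lay above (Ugt1a7c, Jak1 and Chmp1b, 0.0208%) and 3 below (Slc43a1, Edc3 and Pcbp4, 0.0208%). Of these, Jak1, Chmp1b, Slc43a1 and Edc3 were named only because they met this count.

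The data were precise enough to bound most differences. The median standard error of a log2 fold change was 0.17, and for 12752 genes (88.5%) the 95% confidence interval excluded a 2-fold difference in either direction. Of 8657 genes with a mean of at least 10 CPM, the share was 97.2%. Of 104 tested genes of foreign-chemical metabolism, 86 (82.7%) had such an interval. Their median log2 fold change was 0.05, with 61 positive (58.7%, against 49.3% of all genes), and 6 (5.77%) had an unadjusted p under 0.05, against 4.85% of all genes. Without replicates 6 and 8 the number was 3 (2.88%, against 3.35% of all genes).

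**Figure D2:**
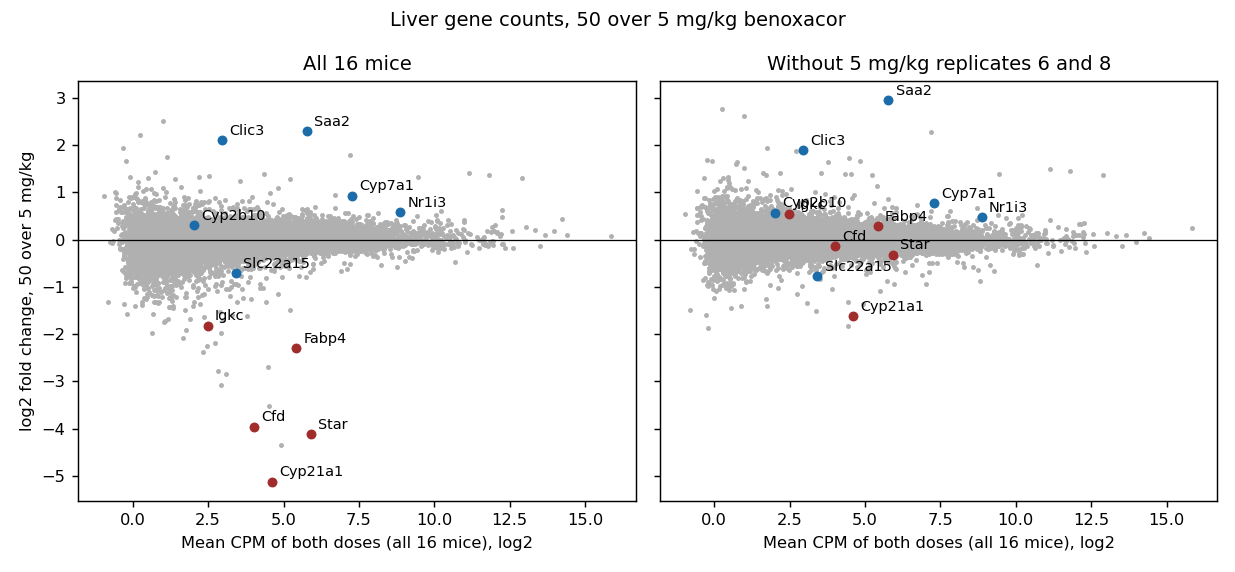
Log2 fold change of 50 over 5 mg/kg (vertical) against the mean CPM of both doses on a log2 scale (horizontal), 1 point per tested gene, with all 16 mice (left) and without 5 mg/kg replicates 6 and 8 (right); red marks genes of other cell types. Star stands at -4.12 with all mice and at -0.32 without the pair, while Cyp7a1 stands at 0.93 and 0.78.

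The receptors that sense foreign chemicals are described first. Nr1i3, which encodes CAR, ranged from 225 to 821 CPM (median 556) at 50 mg/kg and from 186 to 557 CPM (median 405) at 5 mg/kg. In 4 of the 8 mice at 50 mg/kg it lay above every 5 mg/kg mouse, and the others overlapped. The 5 vehicle mice, at 312 to 650 CPM, overlapped both doses. The log2 fold change of Nr1i3 was 0.59 (SE 0.21, interval 0.16 to 1.02), and 0.47 without replicates 6 and 8. Ahr, the dioxin receptor, averaged 49.5 ± 10.7 CPM at 50 mg/kg, against 36.2 ± 4.55 CPM at 5 mg/kg (SD, n = 8 each), a log2 fold change of 0.45 (interval 0.04 to 0.86). Vehicle mice had 37.2 to 55.4 CPM of Ahr and overlapped both doses. Pparg, a receptor that drives fat storage, had a log2 fold change of -0.68 (interval -1.23 to -0.13), and -0.48 (interval -1.08 to 0.12) without replicates 6 and 8. Without 5 mg/kg replicate 2 alone, which held 12.4 CPM of Pparg, it was -0.51. Of 20 receptor genes tested, 15 were positive with a median of 0.08. None passed the adjusted threshold in edgeR. At an unadjusted p under 0.05 there were 3 higher and 1 lower, against 2.45% and 2.40% of all genes. Without replicates 6 and 8, 12 of 20 were positive, and 1 higher and 0 lower had such a p, against 1.8% and 1.55% of all genes.

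CAR's classical target was listed at low levels at both doses. Cyp2b10, the P450 most used as a CAR readout, ranged from 1.12 to 12.2 CPM (median 3.69) at 50 mg/kg and from 0.622 to 8.66 CPM (median 2.01) at 5 mg/kg. In the 5 vehicle mice it ranged from 0.70 to 1.51 CPM. The doses overlapped, and mice of 1 dose differed more among themselves than the dose medians did. The log2 fold change was 0.30 with an interval of -0.65 to 1.26, so neither no difference nor a 2-fold one was excluded. Without 50 mg/kg replicate 1 it was -0.09, and without 5 mg/kg replicate 6 it was 0.77. Sult1d1, a sulfotransferase that acts on catecholamines and phenols, had 85.4 to 442 CPM (median 296) at 50 mg/kg and 99.9 to 369 CPM (median 182) at 5 mg/kg, a log2 fold change of 0.46 (interval -0.13 to 1.04). Over the CAR target list 17 of 25 tested genes were positive with a median of 0.08, where 49.3% of all genes were positive. In either direction 0 had an unadjusted p under 0.05, against 4.85% of all genes.

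PXR targets overlapped between the doses. Cyp3a11, the main drug-oxidising P450 of mouse liver, averaged 4208 ± 912 CPM at 50 mg/kg, against 3499 ± 1260 CPM at 5 mg/kg (SD, n = 8 each), and the interval of its log2 fold change of 0.27 ran from -0.17 to 0.71. Cyp3a13, a related P450, had a log2 fold change of 0.32 (interval -0.10 to 0.74), and 0.50 (interval 0.09 to 0.92) without replicates 6 and 8. Replicate 6 held the highest Cyp3a13 level at 5 mg/kg, 361 CPM. Cyp2c55, a P450 that answers to CAR and PXR, had a log2 fold change of 0.08 (interval -0.45 to 0.60), and -0.10 without the pair. Of 16 PXR targets tested 10 were positive, with a median of 0.07 and 0 at an unadjusted p under 0.05, against 4.85% of all genes.

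Targets of the dioxin receptor showed no common direction. Cyp1a1, its most sensitive target, had 0.416 to 1.93 CPM (median 1.67) at 50 mg/kg and 0.830 to 2.70 CPM (median 1.70) at 5 mg/kg. Cyp1a2, a P450 that oxidises caffeine and aromatic amines, averaged 345 ± 88.5 CPM at 50 mg/kg, against 364 ± 97.0 CPM at 5 mg/kg (SD, n = 8 each). Its interval, -0.47 to 0.31, excluded a 2-fold difference. Cyp1b1, a P450 found mostly outside hepatocytes, had the lowest log2 fold change of the list at -1.73, and -0.18 without the pair. Replicate 8 held 18.2 CPM against at most 2.16 CPM in the other 5 mg/kg mice. Of 11 genes tested 5 were positive, with a median of -0.04.

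Targets of PPAR-alpha, the receptor that turns on fatty acid oxidation, spread widely among mice. Cyp4a14, a fatty acid hydroxylase, ranged from 91.8 to 431 CPM (median 143) at 50 mg/kg and from 20.9 to 1146 CPM (median 88.3) at 5 mg/kg. The highest value belonged to replicate 6, and the log2 fold change of -0.20 became 0.59 without that mouse. Its interval, -1.73 to 1.33, bounded little. Cyp4a10, its neighbour in function, had a log2 fold change of 0.07 (interval -0.75 to 0.88). In all, 17 of 33 PPAR-alpha targets were positive with a median of 0.01, and 25 of 33 with a median of 0.09 without replicates 6 and 8.

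Among conjugating enzymes the glucuronosyltransferases leaned most to 50 mg/kg: 15 of 17 tested genes were positive, against 49.3% of all genes, with a median log2 fold change of 0.24. Without replicates 6 and 8, 12 of 17 were positive with a median of 0.12. The median was 0.05 in the run up to 616 and 0.34 in the run from 619. The list median had an SD of 0.20 among mice of the same dose and run. Ugt1a7c (ENSMUSG00000090124), which attaches glucuronic acid to phenols, ranged from 0.890 to 2.56 CPM (median 1.27) at 50 mg/kg and from 0.115 to 0.795 CPM (median 0.596) at 5 mg/kg. Every 50 mg/kg mouse lay above every 5 mg/kg mouse, at levels of a few reads per library. The 5 vehicle mice, from 0.296 to 3.04 CPM, overlapped both doses. Its log2 fold change was 1.33 (SE 0.41, interval 0.49 to 2.17, edgeR adjusted p = 0.962). Ugt1a7c spans positions 88095062 to 88220002 of chromosome 1 in mm10, within which the annotation also places Ugt1a6a, from 88134809 to 88218997. The Ugt1a genes share their last exons, and how such reads were split is not given in the sources used here, so the values of single members are uncertain. Ugt1a6a had a log2 fold change of 0.51 (interval 0.02 to 0.99), with 10.8 to 35.6 CPM at 50 mg/kg and 9.96 to 26.7 CPM at 5 mg/kg.

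Glutathione S-transferases, which detoxify chloroacetanilides and safeners in many organisms, were evenly split, with 11 of 22 positive and a median of -0.01. Gstm7 had the smallest p of them, with a log2 fold change of -0.58 (SE 0.21, interval -1.01 to -0.15). It ranged from 9.99 to 36.8 CPM (median 18.2) at 50 mg/kg and from 18.1 to 53.2 CPM (median 31.5) at 5 mg/kg, and the vehicle mice lay between 14.0 and 33.4 CPM. Gstm3, a CAR and NRF2 target, had a log2 fold change of 0.22 (interval -0.37 to 0.81). Nqo1, the quinone reductase used as an NRF2 readout, averaged 4.64 ± 1.67 CPM at 50 mg/kg, against 4.4 ± 2.09 CPM at 5 mg/kg (SD, n = 8 each). Of 26 NRF2 targets tested 12 were positive, with a median of -0.03. Among carboxylesterases, Ces2a averaged 241 ± 53.2 CPM at 50 mg/kg, against 248 ± 44.0 CPM at 5 mg/kg (SD, n = 8 each), and its interval of -0.40 to 0.32 excluded a 2-fold difference. The 14 carboxylesterases tested had a median of 0.06 with 9 positive, and 0 had an unadjusted p under 0.05, against 4.85% of all genes.

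**Figure D3:**
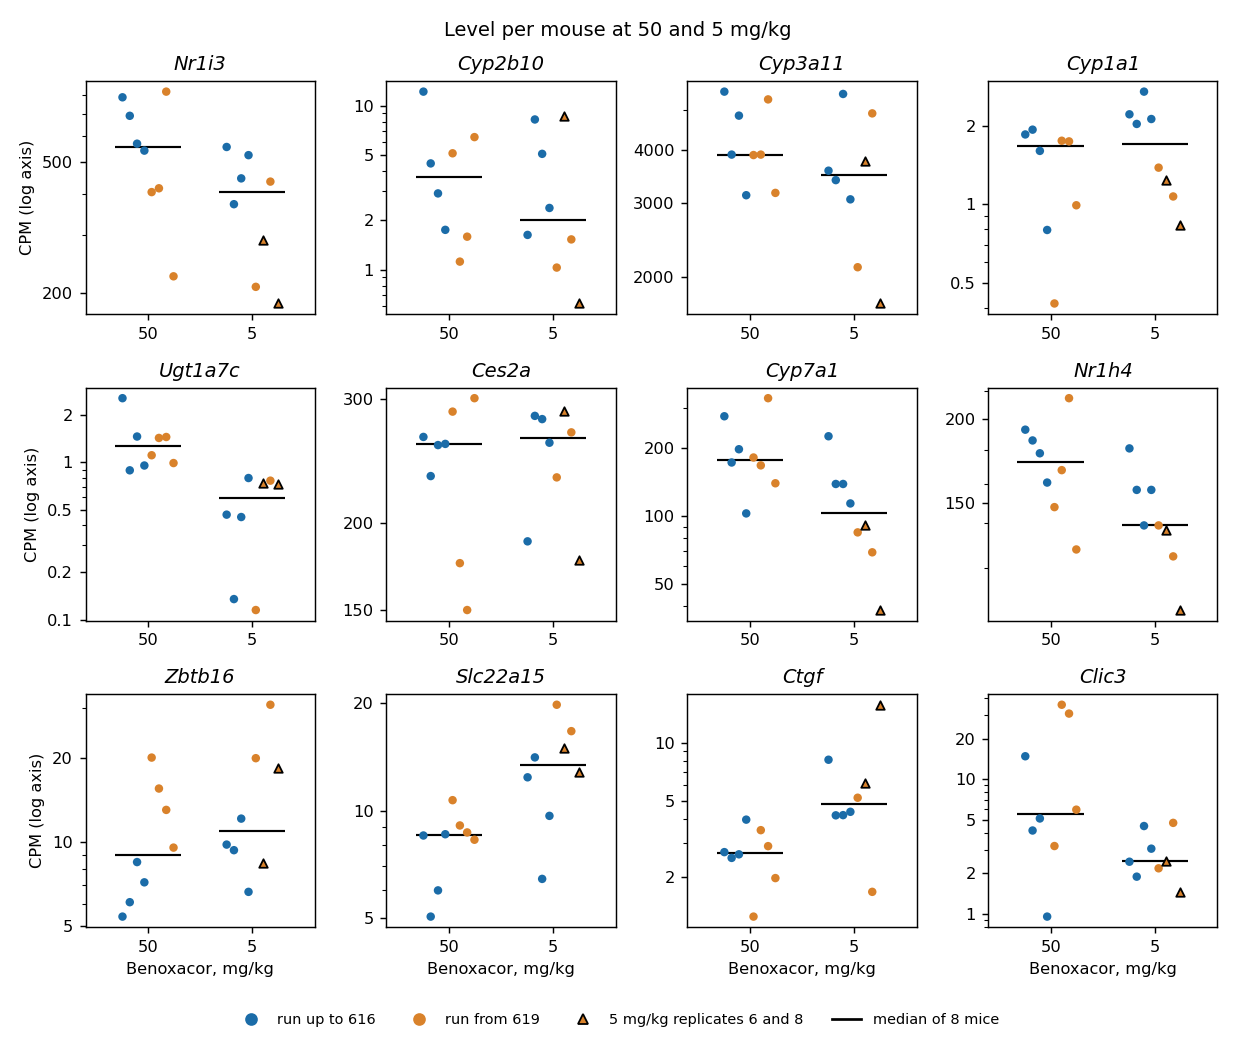
CPM per mouse (log axes) of 12 genes, 50 mg/kg left of 5 mg/kg; blue and orange are the runs, triangles the 5 mg/kg replicates 6 and 8, and bars the medians of 8 mice. Ugt1a7c is the only gene shown whose doses do not overlap, with 0.890 CPM as the lowest 50 mg/kg mouse and 0.795 CPM as the highest 5 mg/kg mouse.

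Bile acid synthesis held the widest gap of the metabolic readouts fixed by name. Cyp7a1 (ENSMUSG00000028240, chromosome 4, 6265612 to 6275633 in mm10), the rate-limiting enzyme, ranged from 103 to 333 CPM (median 177) at 50 mg/kg and from 38.5 to 226 CPM (median 103) at 5 mg/kg, and the vehicle mice from 38.9 to 97.3 CPM. The doses of 50 and 5 mg/kg overlapped, and the 0.5 mg/kg mice, at 36.3 to 232 CPM, overlapped both. The log2 fold change was 0.93 (SE 0.33, interval 0.25 to 1.6), and 0.78 (interval 0.04 to 1.51) without replicates 6 and 8. It did not pass in edgeR (adjusted p = 0.962). In the run up to 616, the 50 mg/kg mice had 277, 173, 198 and 103 CPM and the 5 mg/kg mice 226, 139, 139 and 114 CPM. In the run from 619, the 50 mg/kg mice had 182, 168, 333 and 140 CPM and the 5 mg/kg mice 84.9, 91.9, 69.3 and 38.5 CPM. The log2 fold changes were 0.29 and 1.5, and the interaction of run and dose in edgeR had an adjusted p of 0.973.

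Nr1h4, the bile acid receptor FXR, which represses Cyp7a1 through Shp and intestinal FGF15, averaged 172 ± 27.1 CPM at 50 mg/kg, against 142 ± 23.1 CPM at 5 mg/kg (SD, n = 8 each), a log2 fold change of 0.28 (interval 0.05 to 0.52). Of 27 genes of bile acid synthesis and transport 17 were positive with a median of 0.05. Cyp7a1 and Nr1h4 were the 2 with an unadjusted p under 0.05, both with a higher mean at 50 mg/kg, against 2.45% of all genes. Without replicates 6 and 8 only Cyp7a1 had such a p, against 1.8% of all genes, and the interval of Nr1h4 ran from -0.01 to 0.51. Cyp7a1 transcript follows the time of day in mouse liver. In the run from 619 the clock gene Arntl, given further on, had a log2 fold change of -0.91. The part of either in the Cyp7a1 values was not tested.

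Zbtb16, a zinc finger repressor that glucocorticoids induce, ranged from 5.4 to 20 CPM (median 9.0) at 50 mg/kg and from 6.62 to 30.9 CPM (median 10.9) at 5 mg/kg. In the run up to 616, the 50 mg/kg mice had 5.4, 6.08, 8.46 and 7.16 CPM and the 5 mg/kg mice 9.77, 9.33, 12.1 and 6.62 CPM. In the run from 619, the 50 mg/kg mice had 20, 15.5, 13.0 and 9.53 CPM and the 5 mg/kg mice 19.9, 8.41, 30.9 and 18.3 CPM. Both runs leaned the same way, with log2 fold changes of -0.47 and -0.44, and the mice overlapped in each. The pooled value was -0.44 (SE 0.23, interval -0.91 to 0.02), and -0.61 (interval -1.05 to -0.16) without replicates 6 and 8. Among 14 glucocorticoid targets tested, 6 were positive with a median of -0.10 (-0.01 without the pair).

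The 10 genes with the smallest p in each direction, among those averaging at least 1 CPM over the 16 mice, held no member of the drug metabolism lists, and none of them passed. Ugt1a7c, below that level, had a p smaller than that of Ufl1, which is among them. Slc22a15, an organic cation and zwitterion transporter, had the smallest p of all genes named. It ranged from 5.05 to 10.7 CPM (median 8.56) at 50 mg/kg and from 6.44 to 19.8 CPM (median 13.4) at 5 mg/kg, with the vehicle mice between 6.72 and 16 CPM. Its log2 fold change was -0.70 (SE 0.17, edgeR adjusted p = 0.962), and it was -0.60 in the run up to 616 and -0.83 in the run from 619. Within the run from 619 the 50 mg/kg mice had 10.7, 9.09, 8.69 and 8.29 CPM and the 5 mg/kg mice 19.8, 15.0, 16.7 and 12.8 CPM. Pcbp4, an RNA-binding protein, had 16.7 to 24.5 CPM at 50 mg/kg and 20.6 to 35.9 CPM at 5 mg/kg. The log2 fold change of Pcbp4 was -0.49, and -0.57 without replicates 6 and 8, when its mice no longer overlapped. Paox, which oxidises acetylated polyamines, averaged 30.1 ± 5.65 CPM at 50 mg/kg, against 40.8 ± 5.79 CPM at 5 mg/kg (SD, n = 8 each), a log2 fold change of -0.44.

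Others on the lower side were less even among mice. Ctgf, a matrix protein induced by TGF-beta and YAP signalling, ranged from 1.25 to 3.98 CPM (median 2.66) at 50 mg/kg and from 1.68 to 15.7 CPM (median 4.77) at 5 mg/kg, where replicate 8 was the highest. Its log2 fold change of -1.22 was -0.76 without replicates 6 and 8. The vehicle mice, at 2.32 to 3.78 CPM, lay within the ranges of both doses. Gm15270, a transcript on the strand opposite Ctgf whose interval overlaps it, had a log2 fold change of -1.26. Reads of the pair cannot be assigned with certainty, because the strand setting is not given in the sources used here. Cyp21a1, the 21-hydroxylase of the adrenal cortex, had a log2 fold change of -5.12 with replicate 8 at 359 CPM. Without replicate 8 it was -1.34, and without the pair -1.62. Robo1, a guidance receptor, had -1.36 (-0.89 without replicate 8, which held 22.9 CPM). Pfkp, a phosphofructokinase of glycolysis, had -0.74 (-0.37 without the pair), and Raet1d, a ligand of the killer cell receptor NKG2D, had -1.22 (-1.40 without the pair). Cables1, a cyclin-dependent kinase partner, had -1.06.

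On the higher side, Slc52a2, a riboflavin transporter, averaged 11.9 ± 1.6 CPM at 50 mg/kg, against 8.74 ± 1.15 CPM at 5 mg/kg (SD, n = 8 each), a log2 fold change of 0.44 (SE 0.12). Ranges overlapped only between 9.66 and 10.2 CPM. Clic3, a chloride channel family protein, had the largest log2 fold change of these 10, 2.11 (SE 0.58). Its 50 mg/kg mice had 14.8, 4.16, 5.11 and 0.955 CPM in the run up to 616 and 3.19, 35.7, 30.7 and 5.94 CPM in the run from 619. The 5 mg/kg mice had 2.44, 1.89, 4.49 and 3.05 CPM in the run up to 616 and 2.18, 2.47, 4.74 and 1.45 CPM in the run from 619. The 3 highest mice at 50 mg/kg stood far above the rest of both doses, and a vehicle mouse reached 16.8 CPM. Ufl1, the ligase that attaches the ubiquitin-like protein UFM1, had a log2 fold change of 0.44, and Mgat2, a Golgi enzyme that branches N-glycans, had 0.37. Lin7a, a scaffold protein of cell junctions, had 0.52 and Fbxo33, an F-box protein, had 0.58. R3hdml had 0.82, 4930430F08Rik had 0.67 and Gm37254 had 0.51. H3f3a-ps1, a processed copy of a histone H3.3 gene, had 1.04, and its reads could stem from the parent gene.

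Acute phase genes were mostly positive with all mice pooled, with a median of 0.27 in the run up to 616 and 0.00402 in the run from 619. Saa2, a serum amyloid made by hepatocytes in the acute phase, ranged from 4.97 to 290 CPM (median 49.9) at 50 mg/kg and from 4.88 to 24.2 CPM (median 13.1) at 5 mg/kg. Levels of 241, 290, 110 and 86.4 CPM in 50 mg/kg replicates 3, 4, 5 and 8 exceeded every 5 mg/kg mouse, and the other 4 lay among them. Its log2 fold change was 2.30 (SE 1.07, interval 0.08 to 4.53), and 2.95 (interval 0.38 to 5.53) without replicates 6 and 8. Saa1, its near-identical neighbour, had 1.79 (interval -0.18 to 3.75), and reads of the pair may have been split between them. Mice at 0.5 mg/kg reached 2872 CPM of Saa2. Serpina3m, a protease inhibitor of the same response, had a log2 fold change of 0.31, and Orm2, an orosomucoid, had 0.88. Orm2 stood at 1.87 without the pair, in which replicate 6 held 16 CPM. Of 30 acute phase genes 23 were positive with a median of 0.14, and 28 with a median of 0.31 without the pair. In the fit without the pair 51.8% of all genes were positive, with a median of 0.01. The list median had an SD of 0.51 among mice of the same dose and run, wider than either shift. With all mice 1 of the 30 had an unadjusted p under 0.05, higher at 50 mg/kg, against 2.45% of all genes. Without the pair 3 did, all higher, against 1.8%.

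Genes of endoplasmic reticulum stress and the integrated stress response had 18 of 27 positive with a median of 0.12, and 21 of 27 with 0.18 without the pair. Their median was 0.31 in the run up to 616 and -0.06 in the run from 619. This list median had an SD of 0.36 among mice of the same dose and run. Heat shock genes had 9 of 17 positive with a median of 0.00322, and immediate early genes 8 of 18 with a median of -0.12. Dnajb9, a cofactor of the chaperone BiP, ranged from 47.3 to 125 CPM (median 59.5) at 50 mg/kg and from 32.4 to 55.0 CPM (median 48.8) at 5 mg/kg, a log2 fold change of 0.60 (SE 0.20, interval 0.18 to 1.01). The vehicle mice ranged from 37.7 to 122 CPM (median 105) and overlapped both doses. Hspa5, which encodes BiP itself, had 541 to 2540 CPM at 50 mg/kg and 507 to 1279 CPM at 5 mg/kg, a log2 fold change of 0.39 (0.14 without 50 mg/kg replicate 4). Of 20 Kupffer cell and macrophage markers, 16 were positive with a median of 0.10, and 18 with a median of 0.25 without the pair. Among mice of the same dose and run, the SD of this list median was 0.32. Vsig4, a complement receptor of Kupffer cells, had a log2 fold change of 0.43 (interval -0.02 to 0.87), and Cd163, the haemoglobin scavenger receptor, had 0.40 (interval -0.04 to 0.84).

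Of 24 genes of amino acid and urea metabolism, 4 were positive and 20 negative, with a median of -0.09. The split was 3 and 21 without replicates 6 and 8. Of all genes 49.3% were positive with all mice. In the 2 runs 11 of the 24 had opposite signs, against 48.7% of all genes. The list median had an SD of 0.29 among mice of the same dose and run, wider than the shift. None of the 24 had an unadjusted p under 0.05, against 4.85% of all genes. Agxt, which turns glyoxylate into glycine, averaged 119 ± 53 CPM at 50 mg/kg, against 177 ± 81.3 CPM at 5 mg/kg (SD, n = 8 each), a log2 fold change of -0.51 (interval -1.06 to 0.03). Oat, ornithine aminotransferase, averaged 245 ± 108 CPM at 50 mg/kg, against 360 ± 164 CPM at 5 mg/kg (SD, n = 8 each), a log2 fold change of -0.54 (interval -1.11 to 0.04), and -0.26 without 5 mg/kg replicate 2, which held 633 CPM. Of 24 genes of fatty acid and triglyceride synthesis 17 were negative with a median of -0.12, and 4 had an unadjusted p under 0.05, all lower at 50 mg/kg, where 2.40% of all genes were. Without the pair 18 were negative and 0 had such a p, against 3.35% of all genes. Dgat1, which makes triglycerides and is also active in fat cells, had -0.37 (-0.21 without the pair). Acly, which makes cytosolic acetyl-CoA, had -0.35 (-0.29). Scd2, a desaturase, had -1.61 with all mice and 0.18 without the pair, in which replicate 8 held 131 CPM.

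The log2 fold changes of other cell types' markers depended on replicates 6 and 8. All 7 adipocyte markers tested were negative with a median of -1.02, and 6 had an unadjusted p under 0.05, against 2.40% of all genes on the lower side. Without the pair 6 of 7 were negative, with a median of -0.18 and 0 at such a p, against 1.55% of all genes on the lower side. Fabp4, a fatty acid carrier of fat and endothelial cells, had 3.59 to 20 CPM at 50 mg/kg and 4.77 to 311 CPM at 5 mg/kg. Its log2 fold change was -2.29 with the pair and 0.29 without it, and that of Cfd, the fat cell protease adipsin, was -3.96 and -0.14. For stellate cell and fibroblast markers, 25 of 28 were negative with a median of -0.43, and 14 of 28 with a median of -0.01 without the pair. Sod3, an extracellular superoxide dismutase, had -0.54 and -0.28, Col1a2 had -0.88 and -0.16, and Acta2, smooth muscle actin, had -1.44 and 0.06. Lymphocyte markers had a median of -0.87 over 8 genes with all mice and 0.11 without the pair. Ighm had -1.54 and -0.01, and Igkc, the kappa light chain, had -1.82 and 0.54. Of 8 markers of steroid-producing cells 7 were negative, with a median of -0.34 and -0.09 without the pair. Among them Star, which carries cholesterol into mitochondria, had -4.12 and -0.32. Cyp17a1, a steroid hydroxylase, had -1.02 and -0.12, with 26.3 CPM in replicate 6 and 3.73 CPM in replicate 8. Other markers of the list were not raised with it in replicate 6, where Cyp21a1 had 0 CPM and Star 3.96 CPM. Cyp17a1 is also on the list of female-biased liver genes, and the source of its reads was not tested.

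**Figure D4:**
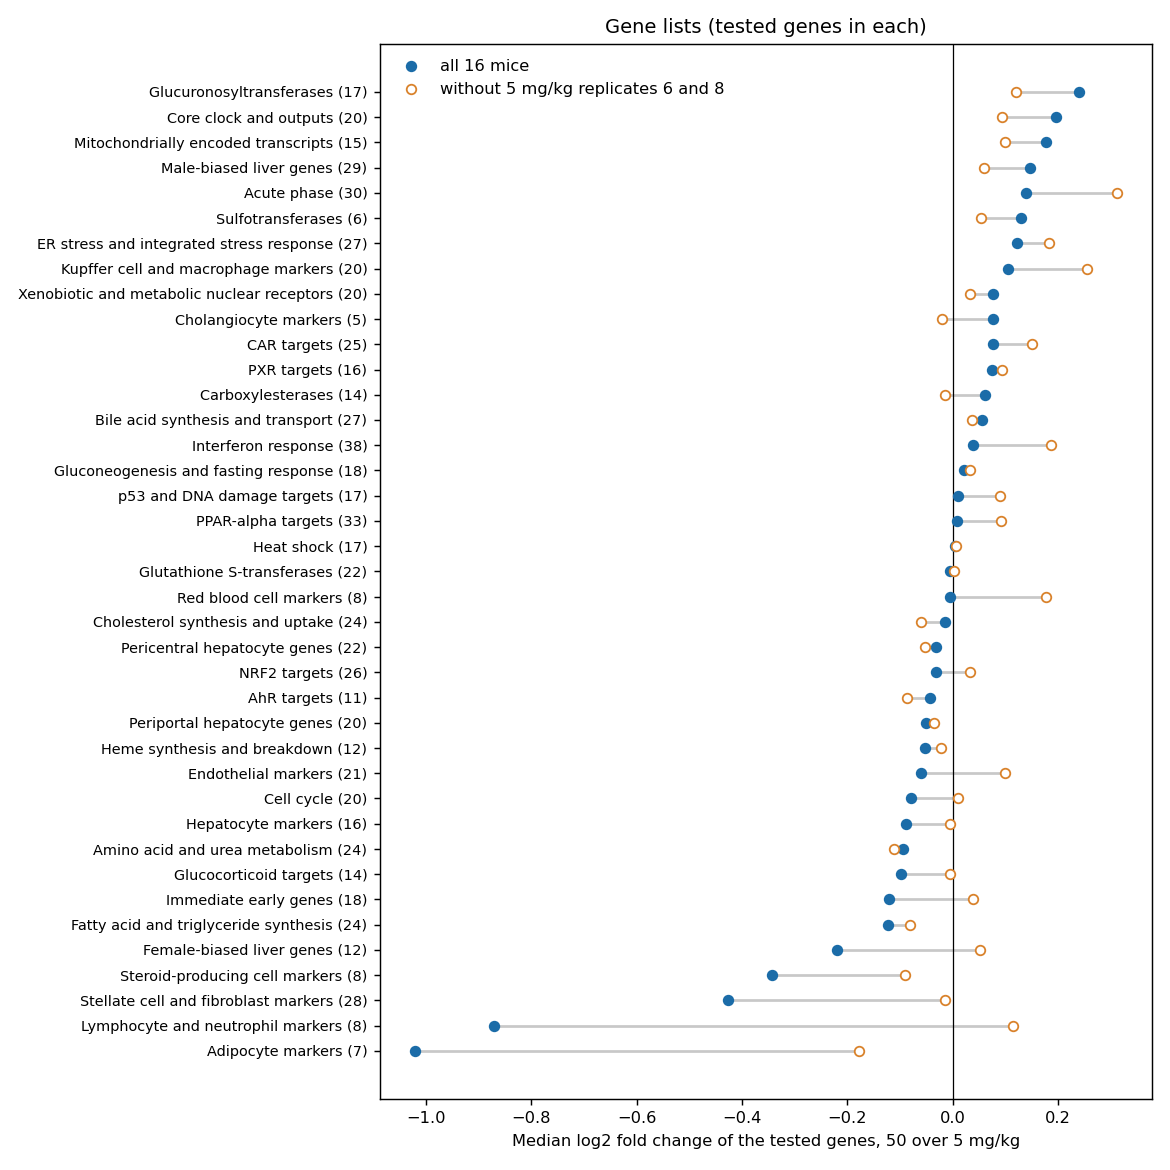
Median log2 fold change of 50 over 5 mg/kg (horizontal) of the tested genes of each list with at least 5 of them (number in brackets), with all 16 mice (filled) and without 5 mg/kg replicates 6 and 8 (open). Adipocyte markers stand at -1.02 and -0.18 and acute phase genes at 0.14 and 0.31.

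The runs were also tested apart. In the run up to 616 alone 524 genes (3.64%) had an unadjusted p under 0.05, in the run from 619 alone 725 (5.03%), and edgeR called 0 in each (smallest adjusted p = 0.943 and 0.890). Leaving replicates 6 and 8 out of the second run gave 271 (1.88%). The log2 fold changes of the runs had opposite signs for 7025 genes (48.7%). A test of the difference between runs, the interaction of run and dose over the 16 mice, called 0 genes in edgeR (smallest adjusted p = 0.973), DESeq2 and limma-voom. Before adjustment edgeR gave 733 genes (5.08%) a p under 0.05, and 405 (2.81%) without replicates 6 and 8.

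Clock genes were the list with the most such differences between runs. The liver clock is a feedback loop in which BMAL1 (Arntl) and CLOCK turn on the Per, Cry, Rev-erb and Dec genes, which in turn repress it, and transcript levels follow the time of day. Of 20 clock and output genes tested 10 had an unadjusted interaction p under 0.05, against 5.08% of all genes, and 5 of 20 without replicates 6 and 8, against 2.81%. Their median log2 fold change was -0.03 in the run up to 616 and 0.49 in the run from 619. The genes Bhlhe40, Arntl, Ciart and Dbp were named after their values were seen. The time of day at which livers were taken is not given in the sources used here, and its part in these values was not tested.

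Bhlhe40, the repressor DEC1, stood in the run up to 616 at 191, 164, 86.2 and 109 CPM at 50 mg/kg and at 243, 290, 213 and 266 CPM at 5 mg/kg. The run from 619 had it at 72.7, 72.4, 169 and 116 CPM at 50 mg/kg and at 63.8, 62.7, 76.4 and 50.1 CPM at 5 mg/kg. The mean at 50 mg/kg was the lower in the first of these runs and the higher in the other. The log2 fold changes of Bhlhe40 were -0.87 and 0.74. Bhlhe41, its paralogue DEC2, had -1.73 and 0.53. In the run up to 616, 50 mg/kg mice had 3.55, 2.52, 1.90 and 1.27 CPM of Bhlhe41 and 5 mg/kg mice 6.40, 12.0, 6.89 and 5.83 CPM.

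Arntl, the activator, stood in the run from 619 at 3.05, 19.3, 10.6 and 18.8 CPM at 50 mg/kg and at 26.1, 24.0, 25.1 and 20.6 CPM at 5 mg/kg. In the run up to 616 all 8 mice were low, at 3.98 to 9.34 CPM at 50 mg/kg and 4.19 to 5.96 CPM at 5 mg/kg. The log2 fold changes of Arntl were 0.31 and -0.91 in the runs up to 616 and from 619. Per2, Ciart and Dbp, which BMAL1 turns on, had values of the opposite sign to Arntl in each run: Per2 had -0.11 and 1.39, Ciart -0.54 and 1.71, and Dbp -0.45 and 1.35. Within the run from 619, 50 mg/kg replicate 5 was lowest in Arntl and highest in Dbp, at 124 CPM, and in Ciart, at 16.5 CPM. Without that mouse the pooled log2 fold changes of Ciart and Dbp were -0.17 and -0.07, against 0.30 and 0.27 with it. Nr1d1, the repressor Rev-erb-alpha and also a BMAL1 target, had -0.80 in each run, so it shared the sign of Arntl in the run from 619.

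**Figure D5:**
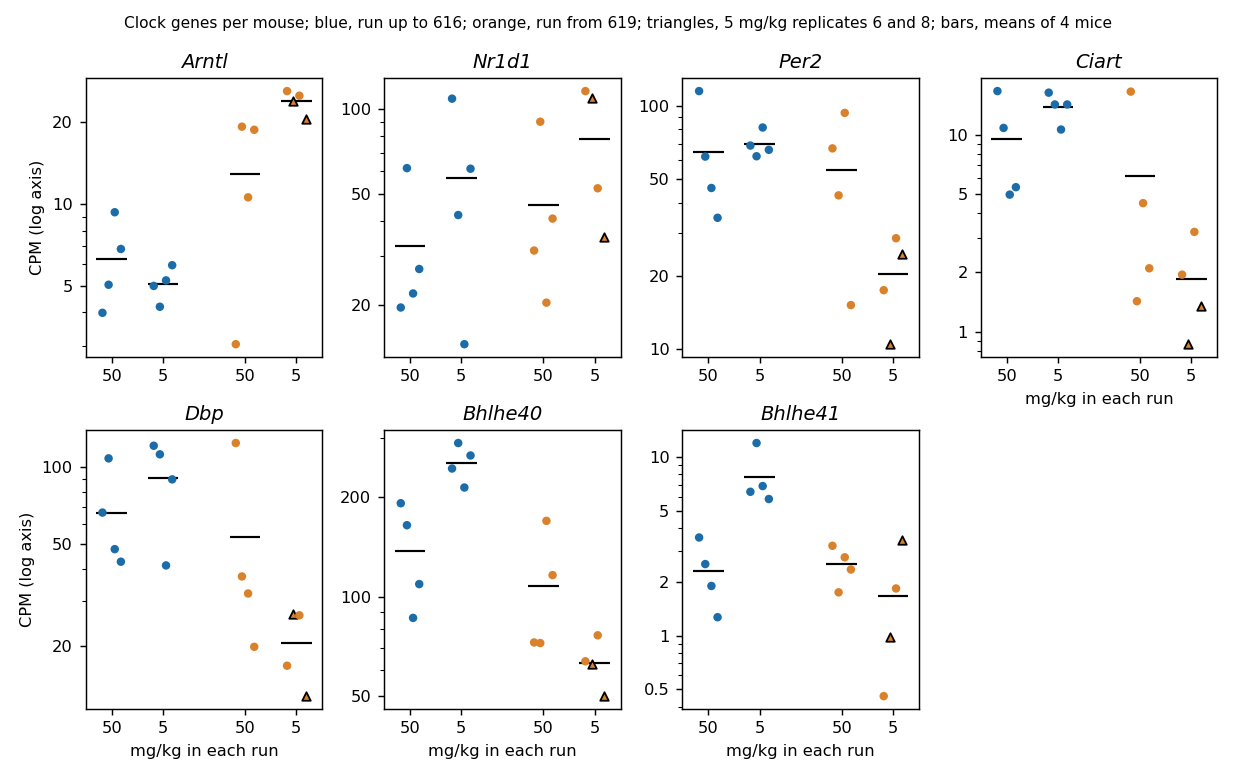
CPM per mouse (log axes) of 7 clock genes, with 50 mg/kg left of 5 mg/kg within the run up to 616 (blue) and within the run from 619 (orange); triangles are 5 mg/kg replicates 6 and 8 and bars are means of 4 mice. Arntl at 5 mg/kg lies at 20.6 to 26.1 CPM in the run from 619 and at 4.19 to 5.96 CPM in the run up to 616.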

How the data were processed

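Liver RNA was extracted with a Qiagen kit, per the labels' protocols. The authors deposited unnormalised counts, as whole numbers for each gene. The tools that the submitters' processing notes name are featureCounts and bcl2fastq, with mm10 as the genome. The aligner, annotation, strand setting and versions are not given in the sources used here. Each of the 26 single-mouse files held the same values as the combined table (54532 genes). Gene positions are from GENCODE M21 on mm10 (54495 IDs matched).

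Counts were filtered by filterByExpr (14415 genes, 99.7% of counts), scaled by TMM and tested with edgeR 4.0.16 under R 4.3.3 (quasi-likelihood, robust, Benjamini-Hochberg) fitting all 26 mice together (dose and run as factors), at an adjusted p of 0.05. The interaction of run and dose used the 16 mice. Standard errors were derived from fold change and F statistic, and intervals are at 95%. The fit was tested on simulated data. Pairs of libraries within a dose differed beyond sampling noise (chi-square per degree of freedom of 12 or more in all 56 pairs), so none was merged. Alternatives were DESeq2 1.42.0, limma-voom (limma 3.58.1), RLE scaling, other filters, each run alone, no run term, and leaving out each mouse or 5 mg/kg replicates 6 and 8.

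Members, gene lists and alternatives were chosen with earlier results of these data known. Named were the 10 genes each way with the smallest p (those averaging 1 CPM or more), the 4 or fewer members of a described list by smallest p, 11 readout genes of drug metabolism and Zbtb16. A gene that this rule names is not reported here. Replicates are numbered in accession order.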

Additional observations from a re-analysis of the deposited data

Results flagged for a closer look

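Within each dose, the highest and lowest mouse were set against the other 7 by Dixon's ratio at its 95% level. This was done for most genes named and for the summed markers of each cell type. Left out were Hsd3b1, Cyp11b1, Cyp11a1, Adipoq, Ucp1, Jak1, Chmp1b, Slc43a1 and Edc3. Of 168 groups examined, 31 had a mouse that far from the rest. Chance flags about 1 in 20 groups only where values follow a normal distribution and genes are chosen without regard to them. Some genes, such as Star and Cfd, were named for a small p that rested on mice flagged here. The 31 therefore cannot be set against that rate.

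In 5 mg/kg replicate 8 there were 15. They were Cyp21a1 at 359 CPM, Star at 911 CPM, Cfd at 205 CPM, Scd2 at 131 CPM, Ighm at 70.0 CPM, Igkc at 60.3 CPM, Col1a2 at 59.2 CPM, Robo1 at 22.9 CPM, Cyp1b1 at 18.2 CPM, Ctgf at 15.7 CPM and Acta2 at 15.6 CPM. Its summed markers of steroid-producing cells (4540 CPM), fibroblasts (1170 CPM), lymphocytes and neutrophils (197 CPM) and exocrine pancreas (191 CPM) were also far above those of the other 5 mg/kg mice.

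In 5 mg/kg replicate 6 there were 8. Those were Cyp4a14 at 1150 CPM, Cyp4a10 at 483 CPM, Cyp3a13 at 361 CPM, Igfbp1 at 80.3 CPM, Cyp17a1 at 26.3 CPM, Orm2 at 16 CPM, Nqo1 at 9.03 CPM and summed hepatocyte markers at 166000 CPM. In 5 mg/kg replicate 3, Gm37254 stood at 8.24 CPM.

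At 50 mg/kg, replicate 7 had 20 CPM of Fabp4, 5.94 CPM of Cfd and 548 CPM of summed red blood cell markers. Replicate 1 had 397 CPM of Acly and 2.56 CPM of Ugt1a7c, and replicate 8 had 11 CPM of Pparg. The lowest mouse was far off once, replicate 3 with 1.02 CPM of Ighm.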

How the results depend on the processing

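The count of 0 genes past an adjusted p of 0.05 held under all alternatives run: DESeq2, limma-voom, RLE scaling, no run term, the 16 mice alone, each run alone, other filters, a threshold of 0.10 and leaving out each mouse. The genes at an unadjusted p under 0.05 numbered 271 in the run from 619 without 5 mg/kg replicates 6 and 8, 1900 when every gene with a count was tested, and 506 to 888 with a mouse left out. The share of intervals that exclude a 2-fold difference was 40.9% over every gene with a count, where many genes had few reads, and 86.6% to 90.4% with a mouse left out. The interaction had 405 genes at an unadjusted p under 0.05 without replicates 6 and 8. No paired analysis was possible because the replicate numbers follow accession order and pair no mice.

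Without replicates 6 and 8 the sign turned for Cyp2c55 (-0.0958), Cyp4a14 (0.389), Fabp4 (0.285), Acta2 (0.0625), Igkc (0.542), Scd2 (0.18), Ciart (-0.11) and Dbp (-0.059). In the run up to 616 it turned for Cyp4a14 (0.178), Ces2a (0.00823), Per2 (-0.106), Fabp4 (0.216), Igkc (0.0857), Scd2 (0.208), Mup3 (-0.0922), Arntl (0.309), Ciart (-0.54) and Dbp (-0.455). In the run from 619 it turned for Cyp2c55 (-0.0148), Cyp1a1 (0.0776), Cyp4a10 (-0.421), Nqo1 (-0.0054), Bhlhe41 (0.525), Igfbp1 (-0.705) and Bhlhe40 (0.739). In that run without the pair, with 2 mice left at 5 mg/kg, it turned for Cyp2c55 (-0.382), Cyp4a14 (1.83), Pparg (0.0391), Bhlhe41 (1.17), Cfd (0.246), Fabp4 (0.333), Cyp17a1 (0.386), Acta2 (0.281), Ighm (0.0471), Igkc (1.25), Scd2 (0.167), Cyp1b1 (0.0846), Igfbp1 (-0.126) and Bhlhe40 (0.606). Under limma-voom it turned for Cyp4a14 (0.404) and Ciart (-0.069). With 1 mouse left out, log2 fold changes crossed 0 for Cyp2b10 (-0.0931 to 0.768), Cyp2c55 (-0.1 to 0.242), Cyp1a2 (-0.139 to 0.03), Cyp4a10 (-0.0756 to 0.386), Cyp4a14 (-0.568 to 0.594), Nqo1 (-0.045 to 0.302), Ces2a (-0.107 to 0.0436), Igkc (-2.04 to 0.0544), Ciart (-0.175 to 0.462) and Dbp (-0.0723 to 0.467). Without crossing 0, Gstm3 was 0.0142 without 50 mg/kg replicate 8, Vsig4 0.234 without 50 mg/kg replicate 7 and Zbtb16 -0.292 without 5 mg/kg replicate 7. None of these values passed a test, and the cause was not tested. Genes of a few reads per library, such as Ugt1a7c and Cyp1a1, are limited by depth.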

Other observations

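Fasting and glucose genes were also compared between the runs. Igfbp1, an insulin-suppressed binding protein of insulin-like growth factors, stood in the run up to 616 at 5.11, 38.9, 77.2 and 53.1 CPM at 50 mg/kg and at 5.47, 1.08, 4.94 and 8.74 CPM at 5 mg/kg. In the run from 619 it stood at 5.69, 29.5, 22.3 and 42.1 CPM at 50 mg/kg and at 21.0, 80.3, 33.2 and 25.4 CPM at 5 mg/kg. Its log2 fold changes were 3.10 and -0.70, and the interaction in edgeR had an adjusted p of 0.973. Of 18 genes of gluconeogenesis and the fasting response 10 were positive with a median of 0.02. In the runs 14 of the 18 had opposite signs, against 48.7% of all genes. An unadjusted interaction p under 0.05 in edgeR was found for 4 of the 18, against 5.08% of all genes. Without replicates 6 and 8 it was found for 3, against 2.81%.

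Interferon response genes had 25 of 38 positive with a median of 0.04, and 32 of 38 with a median of 0.19 without replicates 6 and 8, when 2 had an unadjusted p under 0.05, both higher at 50 mg/kg, against 1.8% of all genes. Cholesterol synthesis genes lay close to 0, with 11 of 24 positive, a median of -0.01 and 23 of 24 intervals that excluded a 2-fold difference. Mitochondrially encoded transcripts had 14 of 15 positive with a median of 0.18, and 13 of 15 with a median of 0.10 without the pair. Of all genes 49.3% and 51.8% were positive in these fits. The list median had an SD of 0.32 among mice of the same dose and run, wider than either shift. With all mice 0 of the 15 had an unadjusted p under 0.05, against 4.85% of all genes. The medians of these transcripts were -0.03 in the run up to 616 and 0.42 in the run from 619. Male-biased liver genes had 21 of 29 positive with a median of 0.15, and 18 with a median of 0.06 without the pair. Among mice of the same dose and run, their list median had an SD of 0.48. Mup3, a major urinary protein under growth hormone control, had a log2 fold change of 0.43 and 0.14 without the pair, where replicate 6, left out, held 5410 CPM, against 12500 to 35100 CPM at 50 mg/kg.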
